A study of Drosophila melanogaster with 12 samples.

Results

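The dpr and DIP genes encode a family of cell surface proteins with immunoglobulin domains, and their expression was followed here in 3 experiments on somatic cells of the germline stem cell niche of the Drosophila melanogaster ovary. The members were taken by name: every gene whose BDGP6 symbol is dpr with a number (21 genes) or DIP- with a Greek letter (11 genes), which made 32 of the 13726 genes with values. The family was singled out because dpr17 was higher after Smu1 RNAi in escort cells (ECs), so that the values of its members in the Smu1 RNAi experiment are given below as a description, with no p.

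Gene expression (GE) was measured by RNA-seq in 12 libraries of sorted cells, 2 for each of 6 groups. Terminal filament cells and cap cells (TFCs-CpCs), the anterior cells that signal to the stem cells, were sorted together at 4w and 1w of adult age as the cells with high GFP in ovaries carrying bab1-Gal4 and UASp-tau::mGFP6, and bab1-Gal4 is also active, at a lower level, in ECs. ECs, which line the germarium and wrap the dividing germ cells, were sorted at 4w and 1w from y w females in which ptc-LexA drove lexAop-mCD8::GFP. For the RNAi experiment, ECs with ptc-LexA, 13xLexAop-mCD8::GFP, ptc-Gal4 and tub-Gal80ts were sorted from adult females after 2 weeks at 29 °C, either with the UAS-Smu1 RNAi construct (Smu1 RNAi) or without any UAS construct (control), and the temperature-sensitive Gal80 and both drivers were carried by controls too. Ovaries of many females were pooled for each library, so that the p-values below describe the spread between 2 pools.

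Dpr proteins take their name from the defective proboscis extension response of the first mutant, and DIPs are the Dpr-interacting proteins. Both are short cell surface proteins with immunoglobulin domains that bind each other across cell contacts, most Dprs to one DIP or a few and some to none that is known, and they are best studied in the fly nervous system, where matching pairs mark synaptic partners and support neuron survival. For the account below, members were grouped by their known partners in Drosophila: DIP-alpha with dpr6 and dpr10, DIP-beta with dpr8, dpr9 and dpr21, DIP-gamma with dpr11, dpr15, dpr16 and dpr17, DIP-delta with dpr12, DIP-epsilon and DIP-zeta with dpr13, dpr14, dpr18, dpr19 and dpr20, and DIP-eta, DIP-theta and DIP-iota with dpr1 to dpr5. DIP-kappa, DIP-lambda and dpr7 were placed in no group.

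The libraries held between 12078227 and 52487930 reads counted on genes, and the TFCs-CpCs libraries were the deeper ones. Replicate 1 of the 1w ECs stood apart: all 32 members had at least 10 counts there, against 12 to 29 members in the other libraries. In it 20 of the 32 had their highest level of all 12 libraries, as did 25.0% of all 13632 genes with a level above 0. Its summed family level was 104 cRPKM (read count corrected for mappable length and for library size), against 47.8 cRPKM in replicate 2 of the same group. Low neuronal genes were also higher in it, such as nSyb (2.97 against 1.09 cRPKM) and, the widest, Syt1 (3.95 against 0.10 cRPKM). Of the neuronal genes listed only Syn (14.0 against 15.8 cRPKM) and Rbp9 (17.8 against 19.9 cRPKM) were lower in it. The labels were checked with markers: en was at 71.4 and 298 cRPKM in 4w TFCs-CpCs and 14.0 and 20.3 cRPKM in 1w TFCs-CpCs, against at most 3.19 cRPKM in any EC library. Another TFC-CpC marker, hh, was at 5.35 to 106 cRPKM in TFCs-CpCs and at 83.0 to 118 cRPKM in ECs. The EC gene fz3 was at 1.30 to 2.32 cRPKM in TFCs-CpCs and at 119 to 360 cRPKM in ECs. Of the same EC list, ptc and Wnt2 were also lower in each TFCs-CpCs library than in any EC library, while Wnt6 went the other way. Wnt6 was at 117 and 474 cRPKM in 4w and 34.4 and 29.1 cRPKM in 1w TFCs-CpCs, against 3.06 to 34.8 cRPKM in ECs. Wnt4 was lower in TFCs-CpCs at 1w, with 76.9 and 78.95 cRPKM against 354 and 235 cRPKM in 1w ECs. It was at 307 and 1390 cRPKM in 4w TFCs-CpCs, against 371 and 257 cRPKM in 4w ECs, and the ranges overlapped. The targeted gene Smu1 was at 4.17 and 5.51 cRPKM in Smu1 RNAi ECs, against 26.4 and 23.6 cRPKM in control ECs.

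Most members were weakly expressed. Averaged over the 2 libraries of a group, 19 of 32 members reached 1 cRPKM in at least 1 group, 6 reached 5 cRPKM (dpr7, dpr8, dpr17, dpr19, DIP-theta and DIP-iota) and 2 reached 10 cRPKM (dpr17 and dpr7), while 13 stayed below 1 cRPKM in every group. No member was at 0 in all libraries, and 12 members had at least 1 count in all 12. Members at or above 1 cRPKM numbered 6 in 4w and 5 in 1w TFCs-CpCs, 11 in 4w and 17 in 1w ECs, and 6 in Smu1 RNAi and 7 in control ECs. These are levels in bulk samples, in which fewer cells of a type and less RNA per cell cannot be told apart.

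**Figure D1:**
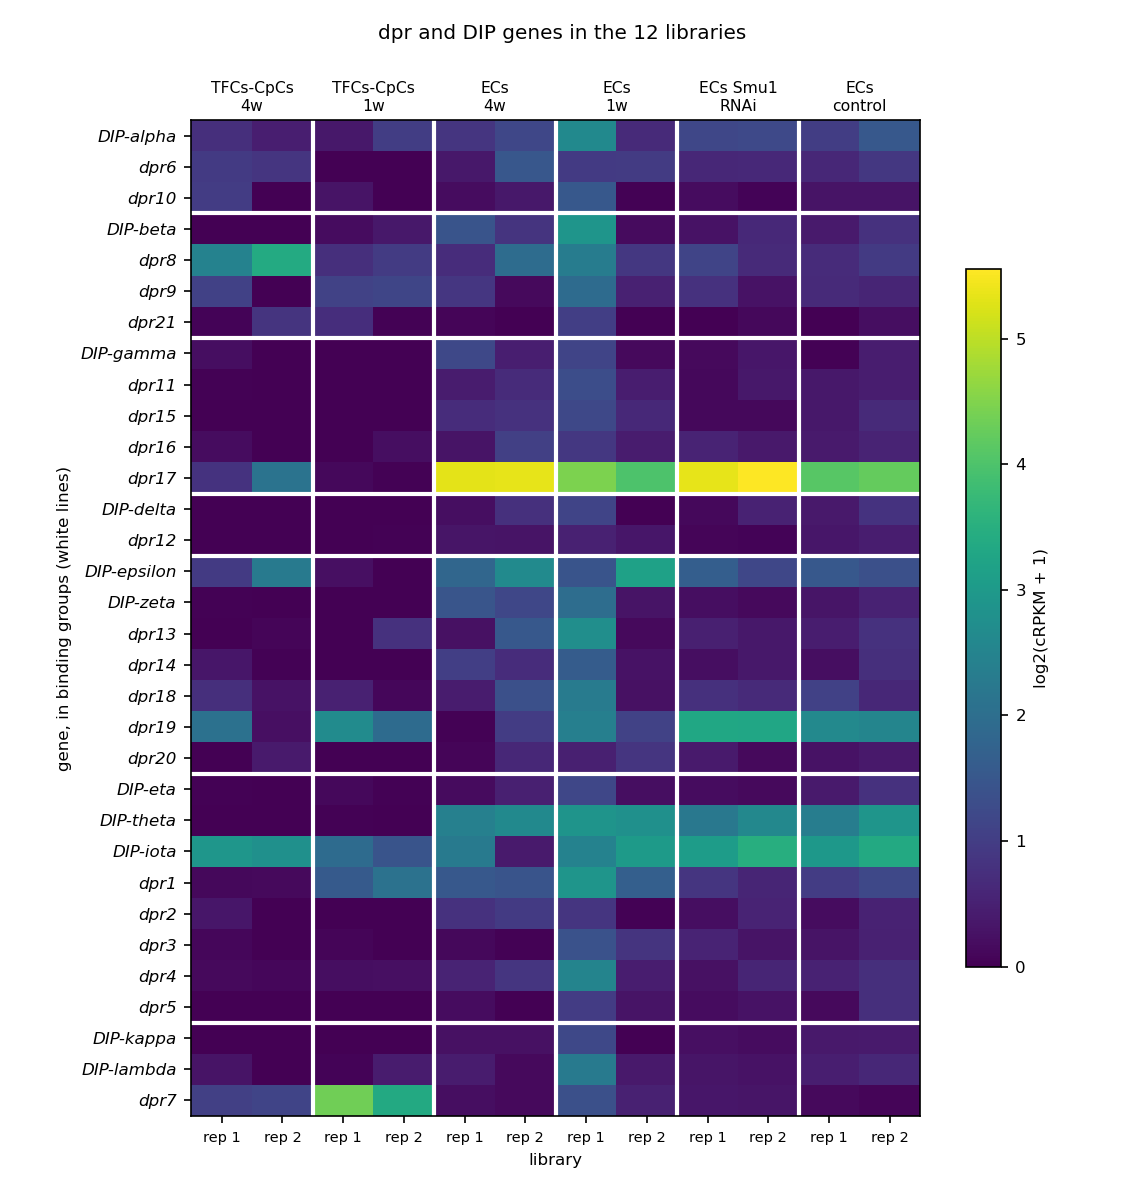
Level of each of the 32 members (rows, in groups of binding partners separated by white lines) in each of the 12 libraries (columns), as log2(cRPKM + 1). dpr17 is the brightest row in all EC libraries, dpr7 is bright in 1w TFCs-CpCs, and replicate 1 of the 1w ECs is brighter than its partner library in most rows.

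A single Dpr dominated the family in ECs. dpr17 (FBgn0051361) lies on chromosome 3R (12094876 to 12111420, plus strand, BDGP6) and shares no exon bases with another gene. It was the highest member in all 8 EC libraries and made up between 20.2% and 60.4% of the summed family level in them. In TFCs-CpCs another member led each library: dpr7 in both 1w libraries, DIP-iota in replicate 1 at 4w and dpr8 in replicate 2 at 4w.

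In the RNAi experiment dpr17 was at 39.7 and 45.9 cRPKM in Smu1 RNAi ECs (2157 and 2124 counts), against 16.3 and 17.8 cRPKM in control ECs (896 and 875 counts). Both Smu1 RNAi libraries were above both controls, and the fitted difference was 2.58-fold (log2 fold change 1.37, SE 0.11). This is the value that led to the choice of the family. By the call rule used throughout (a log2 fold change of 1 or more in size, with p below 0.1 after adjustment over all genes tested), dpr17 was the 1 member past it of the 27 with enough counts, beside 1.11% of the 9933 genes tested, and nothing is read from this count, since this contrast chose the family. Among the 27 members tested the median log2 fold change was -0.33, against -0.00 over all genes tested. Of these 27, 6 had enough counts in the control libraries alone and so were bound to come out lower. Nothing is read from this median.

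The other members were lower than dpr17 in all 4 libraries of this experiment. dpr19, a Dpr of the DIP-epsilon and DIP-zeta group, was at 8.96 and 8.69 cRPKM in Smu1 RNAi ECs, against 5.16 and 4.75 cRPKM in control ECs, without overlap, and its log2 fold change of 0.87 (SE 0.20) was below the threshold of 1. DIP-iota was at 7.45 and 10.2 cRPKM in Smu1 RNAi ECs, against 6.77 and 9.34 cRPKM in control ECs, and DIP-theta at 3.67 and 5.01 cRPKM, against 4.09 and 6.40 cRPKM, so that the ranges of the genotypes overlapped for both. Chosen after their values were seen as the members with the most negative fitted values, dpr12 had 4 and 2 counts in Smu1 RNAi ECs, against 17 and 21 counts in control ECs (log2 fold change -2.55, SE 0.84), dpr15 had 5 and 4 counts, against 16 and 28 counts (-2.19, SE 0.79), and DIP-eta 6 and 4 counts, against 15 and 31 counts (-2.12, SE 0.79). These are low counts, and 6 of the 27 members passed the minimum of 10 counts in 2 libraries through the controls alone. dpr12, dpr15 and DIP-eta were all among these 6, which were bound to come out lower. Summed over 11 genes expressed in late follicle cells, marker levels were 7598 to 11519 cRPKM in Smu1 RNAi ECs, against 3464 to 4581 cRPKM in control ECs, with all 11 genes detected in each library. In replicate 2 of Smu1 RNAi 7965 cRPKM of the sum were from the chorion gene Cp15, and without it the other 10 genes summed to 6613 and 3554 cRPKM in Smu1 RNAi ECs, against 3578 and 3228 cRPKM in control ECs. Their part in the dpr17 difference was not tested.

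The other members called in an ageing or cell group comparison were low here. dpr8 was at 1.19 and 0.59 cRPKM in Smu1 RNAi ECs, against 0.61 and 0.91 cRPKM in control ECs. dpr6 was at 0.54 and 0.55 cRPKM, against 0.53 and 0.88 cRPKM, and dpr11 at 0.09 and 0.28 cRPKM, against 0.29 and 0.36 cRPKM. dpr1 was at 0.80 and 0.48 cRPKM in Smu1 RNAi ECs, against 0.97 and 1.32 cRPKM in control ECs. dpr7 was at 0.26 and 0.24 cRPKM, against 0.10 and 0.06 cRPKM, and dpr14 at 0.16 and 0.28 cRPKM, against 0.15 and 0.69 cRPKM. The genotypes overlapped for dpr6, dpr8 and dpr14 among these, and did not for dpr1, dpr7 and dpr11. The share of all genes without overlap was not counted, so that nothing is read from this. Among the DIPs, DIP-epsilon was at 2.14 and 1.27 cRPKM in Smu1 RNAi ECs, against 1.88 and 1.56 cRPKM in control ECs. DIP-beta was at 0.20 and 0.55 cRPKM, against 0.33 and 0.73 cRPKM, and DIP-zeta at 0.15 and 0.11 cRPKM, against 0.24 and 0.45 cRPKM. DIP-zeta alone of these 3 did not overlap between genotypes, and nothing is read from this either.

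With age, dpr17 had the same order of levels in ECs, without passing the test. dpr17 was at 39.1 and 39.9 cRPKM in 4w ECs (2213 and 2314 counts), against 21.1 and 14.9 cRPKM in 1w ECs (874 and 770 counts). The 4w libraries were both above the 1w libraries, and the fitted difference was 2.34-fold (log2 fold change 1.23, SE 0.34). It did not pass the threshold, with an adjusted p of 0.406 in edgeR's quasi-likelihood test, while DESeq2's Wald test gave it an adjusted p of 0.0499 and called it, and under the 7 alternative fits run on all libraries its adjusted p lay between that value and 0.733. Leaving out single libraries moved its log2 fold change between 1.07 and 1.38, with no call.

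No member was called with age in ECs by edgeR, beside 0.103% of the 10675 genes tested; 29 of the 32 members had enough counts. DESeq2 called 1 member (dpr17), beside 0.984% of genes, and limma on log2(cRPKM + 1) called 0. At an unadjusted p under 0.05 edgeR had 1 of 29 members (dpr17), and 5.34% of all genes. DIP-theta, one of 3 DIPs that bind dpr1 to dpr5, kept close levels at both ages, with 4.38 and 5.19 cRPKM in 4w ECs against 6.31 and 5.92 cRPKM in 1w ECs (log2 fold change -0.28, SE 0.70, adjusted p = 0.999 in edgeR).

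Other members of ECs were low and varied within an age. dpr19 was at 0.03 and 0.99 cRPKM in 4w ECs, against 4.24 and 1.14 cRPKM in 1w ECs (log2 fold change -2.27, SE 1.70, adjusted p = 0.999 in edgeR). The most negative fitted value was that of dpr3, with 0.08 and 0.02 cRPKM at 4w against 1.63 and 0.79 cRPKM at 1w (log2 fold change -4.38, SE 2.11, adjusted p = 0.937 in edgeR). DIP-iota was at 3.81 and 0.33 cRPKM in 4w ECs, against 4.48 and 7.10 cRPKM in 1w ECs, and DIP-epsilon at 2.55 and 5.29 cRPKM, against 1.71 and 8.04 cRPKM. dpr8 was at 0.63 and 2.92 cRPKM in 4w ECs, against 4.05 and 0.87 cRPKM in 1w ECs, and the ages overlapped. The fitted sign of DIP-epsilon in ECs depended on single libraries, with log2 fold changes from -1.07 to 1.35 when one was left out. Over the 29 members tested the median log2 fold change was -0.97 with both 1w libraries and 0.79 over the 25 members tested without replicate 1 of the 1w ECs, against -0.03 and 0.02 over all genes tested, so that this library set the sign of the family median. Muscle marker genes (14 genes) summed to 137 to 154 cRPKM in 4w ECs, against 461 to 1289 cRPKM in 1w ECs, all 14 detected in each library, and neuronal genes (12 genes) to 84.7 to 88.6 cRPKM, against 89.3 to 136 cRPKM, all 12 detected; the part of these cells in the EC values was not tested.

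**Figure D2:**
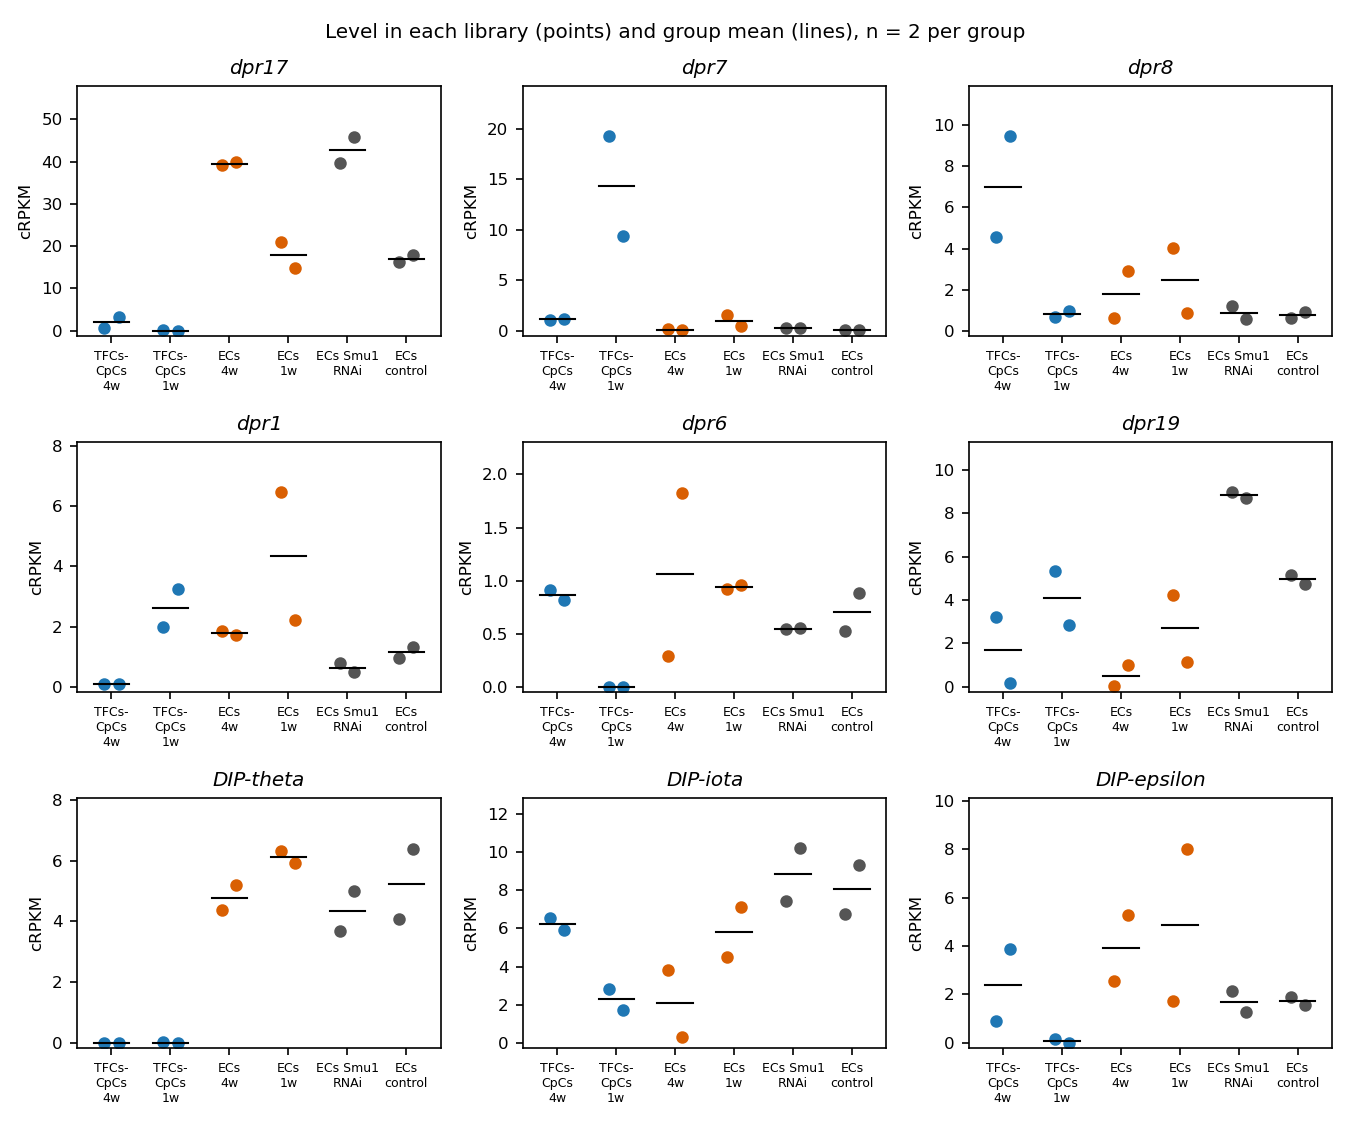
Level in cRPKM (vertical axis, linear, from 0) of 9 members in each library (points, 2 per group) with the group mean (line), for TFCs-CpCs (blue), ECs of the ageing experiment (orange) and ECs of the RNAi experiment (grey). dpr17 is near 40 cRPKM in 4w ECs and in Smu1 RNAi ECs, and DIP-theta is at 0 or close to it in all 4 TFCs-CpCs libraries.

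In TFCs-CpCs 3 Dprs changed with age: dpr8 rose at 4w, and dpr1 and dpr7 fell. These 3 calls, 1 higher and 2 lower, were among 17 members with enough counts, beside 5.18% of the 9249 genes tested (1.25% higher and 3.92% lower). The other 15 members were not tested because of low counts in these libraries: dpr2, dpr3, dpr5, dpr11, dpr12, dpr13, dpr14, dpr15, dpr20, DIP-gamma, DIP-delta, DIP-zeta, DIP-eta, DIP-theta and DIP-kappa. No DIP was called in this comparison. The median log2 fold change of the members tested was -0.20, against 0.04 over all genes tested.

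dpr7 (FBgn0053481; chromosome 4, 247124 to 253329, minus strand, BDGP6), for which the binding groups used here give no partner, was at 1.08 and 1.19 cRPKM in 4w TFCs-CpCs (69 and 55 counts), against 19.3 and 9.40 cRPKM in 1w TFCs-CpCs (1054 and 605 counts). Neither 4w library came near the 1w libraries, and the fitted level was 15.4-fold lower (log2 fold change -3.94, SE 0.82, adjusted p = 0.0786 in edgeR). This was the most frequent of the 3 calls across settings, made in all 7 alternative fits on all 4 libraries and in 2 of the 4 fits that left out a library.

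dpr8 (FBgn0052600; chromosome X, 14322226 to 14462351, plus strand, BDGP6), a Dpr of the DIP-beta group, was at 4.54 and 9.48 cRPKM in 4w TFCs-CpCs (1165 and 1749 counts), against 0.68 and 0.95 cRPKM in 1w TFCs-CpCs (148 and 245 counts). The ages did not overlap, and the fitted level was 7.14-fold higher at 4w (log2 fold change 2.84, SE 0.60, adjusted p = 0.0845 in edgeR). DIP-beta, its partner, had 3 and 0 counts in 4w TFCs-CpCs, against 25 and 67 counts in 1w TFCs-CpCs. The ratio of the pooled counts per read was 28.4-fold lower at 4w (exact 95% interval 9.41 to 140, counting error only), DIP-beta passed the filter through the 1w libraries alone, and it was not called (adjusted p = 0.365 in edgeR).

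dpr1 (FBgn0040726; chromosome 2R), the founding gene of the family, was at 0.08 and 0.10 cRPKM in 4w TFCs-CpCs (14 and 13 counts), against 1.99 and 3.26 cRPKM in 1w TFCs-CpCs (316 and 608 counts). The fitted level was 36.0-fold lower at 4w (log2 fold change -5.17, SE 1.10, adjusted p = 0.0845 in edgeR). No other Dpr of its group, dpr2 to dpr5, exceeded 0.27 cRPKM in a TFCs-CpCs library, whereas DIP-iota, a DIP of the same group, was at 6.52 and 5.93 cRPKM at 4w, against 2.83 and 1.72 cRPKM at 1w, without a call.

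Beyond these 3, dpr6, dpr17 and DIP-epsilon showed wide differences that did not pass the test. dpr6, which binds DIP-alpha, had 128 and 83 counts in 4w TFCs-CpCs and 0 and 0 counts in 1w TFCs-CpCs, and was at least 37.5-fold higher at 4w against the 3 counts per library that a count of 0 allows. It passed the filter through the 4w libraries alone and was not called (adjusted p = 0.157 in edgeR). dpr17 was at 0.75 and 3.31 cRPKM in 4w TFCs-CpCs (135 and 428 counts), against 0.09 and 0.02 cRPKM in 1w TFCs-CpCs (14 and 4 counts), with a log2 fold change of 4.82 (SE 1.62, adjusted p = 0.211 in edgeR). DIP-epsilon had 148 and 455 counts at 4w, against 23 and 0 counts at 1w, with a log2 fold change of 4.50 (SE 2.26, adjusted p = 0.406 in edgeR).

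The ages did not overlap in any of these 3 genes, which are given here for their wide differences, so that nothing is read from this. Many members differed widely between the 2 libraries of an age. dpr19 was at 3.23 and 0.17 cRPKM in 4w TFCs-CpCs, against 5.36 and 2.84 cRPKM in 1w TFCs-CpCs. Of the 21 members with at least 10 counts in a 4w library, 11 differed by 5-fold or more between the 2 replicates, and of 18 members at 1w, 7 did. Among all genes the shares were 20.5% at 4w and 17.2% at 1w, and among other genes with an overall mean under 5 cRPKM, where most members lie, 58.9% and 55.3%.

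The calls depended on single libraries. Without replicate 1 of the 1w TFCs-CpCs edgeR called 0 of 14 members tested (1.94% of genes; 6 members at an unadjusted p under 0.05), and without replicate 2 of that group 0 of 14 (3.05% of genes; 4 members). Without replicate 1 of the 4w group 6 members were called (14.4% of genes), and without replicate 2 of that group dpr1 and dpr7 were (10.9% of genes). With all 4 libraries and an adjusted p under 0.05 edgeR called 0 members, beside 3.10% of genes. At an unadjusted p under 0.05 it had 5 of the 17 members tested, against 17.3% of all genes. Muscle marker genes summed to 1873 to 2058 cRPKM in 4w TFCs-CpCs, against 54228 to 56516 cRPKM in 1w TFCs-CpCs, with all 14 detected in each library, and late follicle cell genes to 28247 to 134179 cRPKM, against 3090 to 10481 cRPKM, all 11 detected. Cp15 gave 73479 cRPKM of the sum in replicate 1 at 4w and 60.4 cRPKM in replicate 2, and without it the other 10 genes summed to 60699 and 28186 cRPKM at 4w, against 10419 and 3017 cRPKM at 1w. The list of 6 TFC-CpC genes summed to 504 to 1298 cRPKM in 4w TFCs-CpCs, against 249 to 317 cRPKM in 1w TFCs-CpCs, with all 6 detected. The list of 6 EC genes summed to 447 to 1915 cRPKM, against 129 to 130 cRPKM, with 5 detected and SPE at 0 in all 4 libraries. The neuronal list summed to 35.9 to 50.8 cRPKM, against 162 to 168 cRPKM, with 11 or 12 of 12 genes detected, nSyb at 0 in both 1w libraries, and 132 to 137 cRPKM of the 1w sum from Rbp9. The hemocyte list summed to 75.45 to 182 cRPKM at 4w, against 358 to 378.5 cRPKM at 1w. In it Pxn was at 17.5 and 0.03 cRPKM, against 302 and 285 cRPKM. The germline list summed to 106 to 178 cRPKM, against 98.5 to 329 cRPKM. The fat body list, nearly all of it Yp1, summed to 6855 to 13179 cRPKM, against 1059.5 to 4305.5 cRPKM. The part of these cells in the member differences was not tested.

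**Figure D3:**
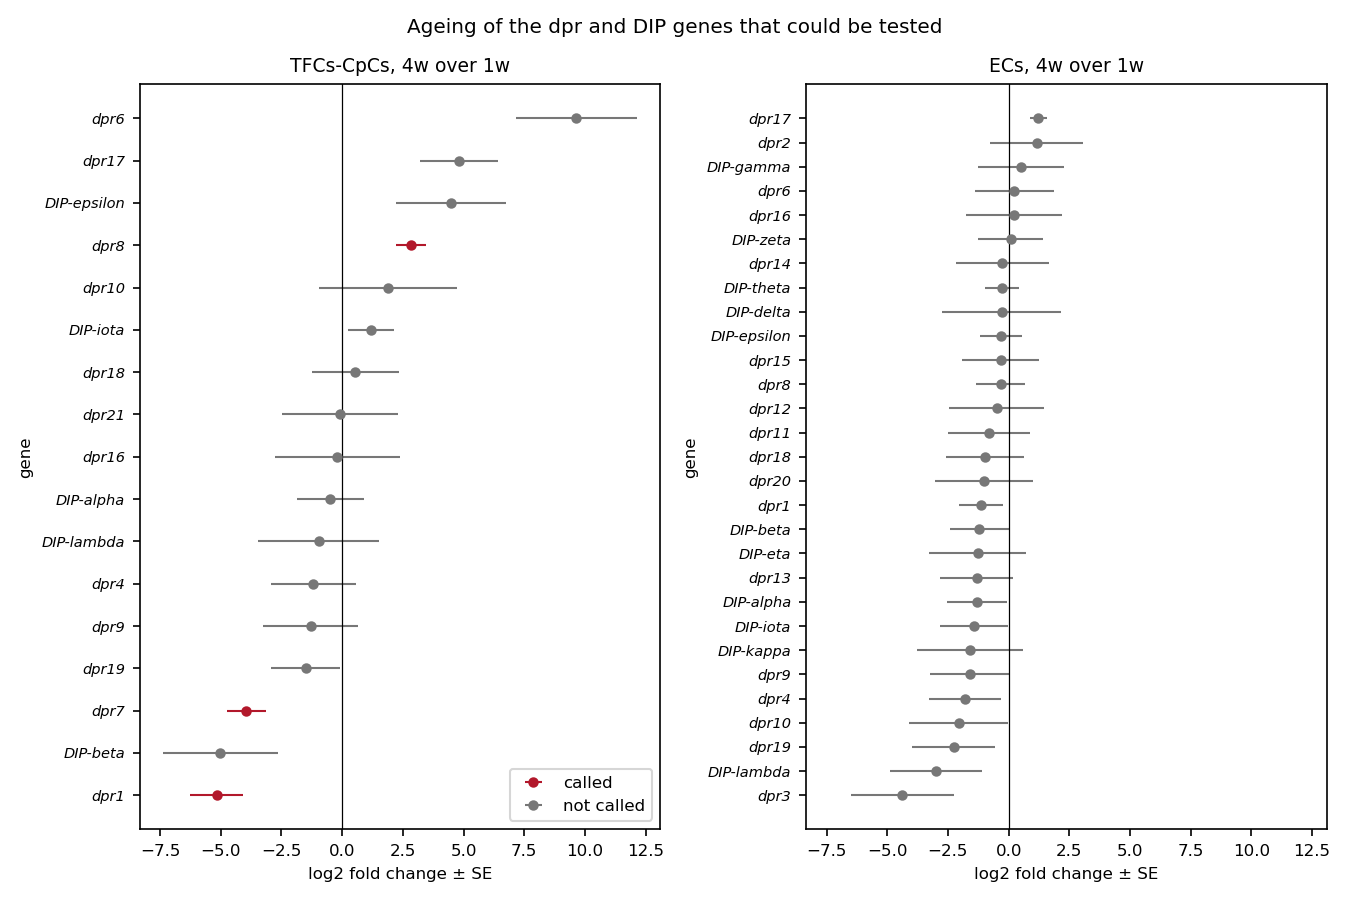
Fitted log2 fold change at 4w over 1w (horizontal axis) with its SE for each member that could be tested, in TFCs-CpCs (left, 17 members) and ECs (right, 29 members), from edgeR; red marks a call. dpr8, dpr7 and dpr1 are the red points on the left, and no point on the right is red.

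Whether ageing effects differed between TFCs-CpCs and ECs was tested as an interaction in one fit of the 8 ageing libraries. No member was called by edgeR, beside 2.47% of the 11452 genes tested; 31 members were tested, 4 of them at an unadjusted p under 0.05 (dpr1, dpr6, dpr8 and dpr17), against 13.8% of all genes. DESeq2 called 3 members (dpr1, dpr6 and dpr17), beside 7.45% of genes, and limma on log2(cRPKM + 1) called 0. For dpr17 the age difference was 3.63 log2 units larger in TFCs-CpCs than in ECs (SE 1.01, adjusted p = 0.133 in edgeR). For dpr8 it was 3.18 log2 units larger (SE 1.30, adjusted p = 0.303 in edgeR), and for dpr7 the interaction was -1.09 (SE 1.71, adjusted p = 0.846 in edgeR). For dpr1 the 4w to 1w ratio was 16.0-fold lower in TFCs-CpCs than in ECs (SE 1.42 on the log2 scale, adjusted p = 0.240 in edgeR), and dpr1 was called by DESeq2 and by edgeR with all 12 libraries in one fit. By the edgeR test of the 8 libraries, none of the 3 Dprs called with age in TFCs-CpCs was shown to differ from ECs in its ageing effect.

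Between cell groups, 10 members were called at 1w and 4 at 4w. At 1w, 9 were lower in TFCs-CpCs than in ECs (dpr17, DIP-theta, dpr6, DIP-zeta, dpr15, DIP-epsilon, dpr11, dpr14 and DIP-gamma) and dpr7 was higher. This was 10 of the 31 members tested, beside 23.9% of the 11452 genes (11.2% lower and 12.7% higher). With the replicate number as a block 5 were called (DIP-theta, DIP-zeta, dpr6, dpr7 and dpr17), beside 19.2% of genes. The numbers pair the EC samples, while what they pair in TFCs-CpCs is not known. At 4w, dpr17, DIP-theta, dpr1 and DIP-beta were lower in TFCs-CpCs and none was higher, 4 of 31 beside 10.9% of genes (3.86% lower and 7.03% higher). The median log2 fold change over members tested was -3.39 at 1w and -2.36 at 4w, against -0.23 and -0.07 over all genes tested. Such a shift was not particular to the family. Medians at 1w and 4w were -3.20 and -1.70 in the beat and Side genes (described below) and -2.76 and -1.53 in the neuronal list. In the list of other immunoglobulin adhesion genes they were -0.75 and -0.34. Of the 31 members, 7 passed the filter through EC libraries alone (dpr11, dpr12, dpr15, DIP-delta, DIP-zeta, DIP-theta and DIP-kappa). Those of them that were called had to be lower in TFCs-CpCs. Cell group cannot be told apart from the driver, the reporter, the number of sorted cells and the depth.

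dpr17, which passed the filter in both cell groups, was called at both ages in all 7 alternative fits and without any single library. DIP-theta was too, but passed the filter through ECs alone. With the values given above, dpr17 was 17.5-fold lower in TFCs-CpCs at 4w (log2 fold change -4.13, SE 0.75, adjusted p = 0.00744 in edgeR) and 217-fold lower at 1w (log2 fold change -7.76, SE 0.91, adjusted p = 0.000252 in edgeR). DIP-theta (FBgn0051646; chromosome 2L, 5626291 to 5658560, minus strand, BDGP6) had 2 and 0 counts in 4w TFCs-CpCs, against 204 and 248 counts in 4w ECs, and 2 and 0 counts in 1w TFCs-CpCs, against 216 and 252 counts in 1w ECs, although the TFCs-CpCs libraries were the deeper ones. Per counted read it was 609-fold lower in TFCs-CpCs at 4w (exact 95% interval 168 to 5043) and 838-fold lower at 1w (231 to 6940), intervals that cover counting error only; the adjusted p was 0.0121 at 4w and 0.00632 at 1w in edgeR. The gene shares 12.6% of its exon bases with lncRNA:CR44822 on the same strand, and reads in that stretch cannot be assigned to either.

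dpr7 was the 1 member called higher in TFCs-CpCs. At 1w it was at 19.3 and 9.40 cRPKM in TFCs-CpCs, against 1.55 and 0.43 cRPKM in ECs (log2 fold change 4.44, SE 1.27, adjusted p = 0.0371 in edgeR). At 4w it was at 1.08 and 1.19 cRPKM in TFCs-CpCs, against 0.15 and 0.10 cRPKM in ECs, still without overlap but not called (log2 fold change 3.35, SE 1.27, adjusted p = 0.149 in edgeR). In each cell group both 4w values were below both 1w values. The muscle genes moved the same way, with 13 of 14 called higher in TFCs-CpCs at 1w and 12 of 14 at 4w. They summed to 54228 to 56516 cRPKM in TFCs-CpCs, against 461 to 1289 cRPKM in ECs at 1w, and to 1873 to 2058 cRPKM, against 137 to 154 cRPKM, at 4w. Their part in the dpr7 difference was not tested.

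dpr6 had 0 and 0 counts in 1w TFCs-CpCs, against 30 and 39 counts in 1w ECs, and was at least 40.8-fold lower in TFCs-CpCs (adjusted p = 0.0364 in edgeR). At 4w it was at 0.91 and 0.82 cRPKM in TFCs-CpCs, against 0.29 and 1.83 cRPKM in ECs, and the ranges overlapped. dpr1 was close in the cell groups at 1w and apart at 4w, with 1.99 and 3.26 cRPKM in TFCs-CpCs against 6.46 and 2.23 cRPKM in ECs at 1w, and 0.08 and 0.10 cRPKM in TFCs-CpCs against 1.87 and 1.72 cRPKM in ECs at 4w (log2 fold change at 4w -4.18, SE 1.11, adjusted p = 0.0461 in edgeR).

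DIP-beta had 3 and 0 counts in 4w TFCs-CpCs, against 126 and 59 counts in 4w ECs, a ratio 166-fold lower in TFCs-CpCs (exact 95% interval 56.0 to 813; adjusted p = 0.0796 in edgeR). At 1w it was at 0.13 and 0.29 cRPKM in TFCs-CpCs, against 6.48 and 0.12 cRPKM in ECs, where the EC replicates lay on either side of the TFCs-CpCs values. DIP-zeta had 1 and 0 counts in 1w TFCs-CpCs, against 122 and 12 counts in 1w ECs. Its ratio was 480-fold lower (exact 95% interval 84.7 to 19095, counting error only), with an adjusted p of 0.0454 in edgeR. DIP-zeta passed the filter through ECs alone, so that a call had to be lower in TFCs-CpCs. It had 5 and 1 counts in 4w TFCs-CpCs, against 99 and 72 counts in 4w ECs, without a call. DIP-epsilon had 23 and 0 counts in 1w TFCs-CpCs, against 64 and 375 counts in 1w ECs (log2 fold change -5.37, SE 1.81, adjusted p = 0.0672 in edgeR).

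The other calls at 1w were Dprs and a DIP at the detection limit in TFCs-CpCs. dpr11 had 1 and 1 counts in 1w TFCs-CpCs, against 62 and 19 counts in 1w ECs, and dpr15 had 1 and 0 counts, against 54 and 29 counts. The exact 95% intervals of their ratios were 38.9 to 1218 and 51.9 to 11881. Both genes passed the filter through ECs alone, so that a call had to be lower in TFCs-CpCs. dpr14 had 0 and 0 counts in TFCs-CpCs, against 40 and 5 counts in ECs, and DIP-gamma 0 and 0 counts, against 44 and 5 counts. Set against the mean of the 2 EC libraries, they were at least 29.3-fold and at least 32.0-fold lower in TFCs-CpCs. These folds rest mainly on replicate 1 of the 1w ECs and do not hold for replicate 2 alone, which had 5 counts of either gene. The adjusted p-values of dpr11, dpr15, dpr14 and DIP-gamma in edgeR were 0.0832, 0.0671, 0.0904 and 0.0996. In these 4 genes replicate 1 of the 1w ECs held the larger count. At 4w dpr11 was at 0.02 and 0.01 cRPKM in TFCs-CpCs, against 0.35 and 0.61 cRPKM in ECs, and dpr14 at 0.27 and 0.02 cRPKM, against 1.05 and 0.62 cRPKM. dpr15 was at 0.01 and 0.01 cRPKM in 4w TFCs-CpCs, against 0.64 and 0.74 cRPKM in 4w ECs, and DIP-gamma at 0.16 and 0.00 cRPKM, against 1.29 and 0.39 cRPKM. None of these 4 was called at 4w. Without that library dpr17, DIP-theta, dpr6 and dpr7 were the 4 calls at 1w (11.4% of genes), and the median log2 fold change of the members tested was -1.15, against -0.03 over all genes tested. With DESeq2's size factors in place of TMM, the median of all genes at 1w was -0.42 and that of the members -3.64, with the same 10 members called, beside 24.0% of genes.

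**Figure D4:**
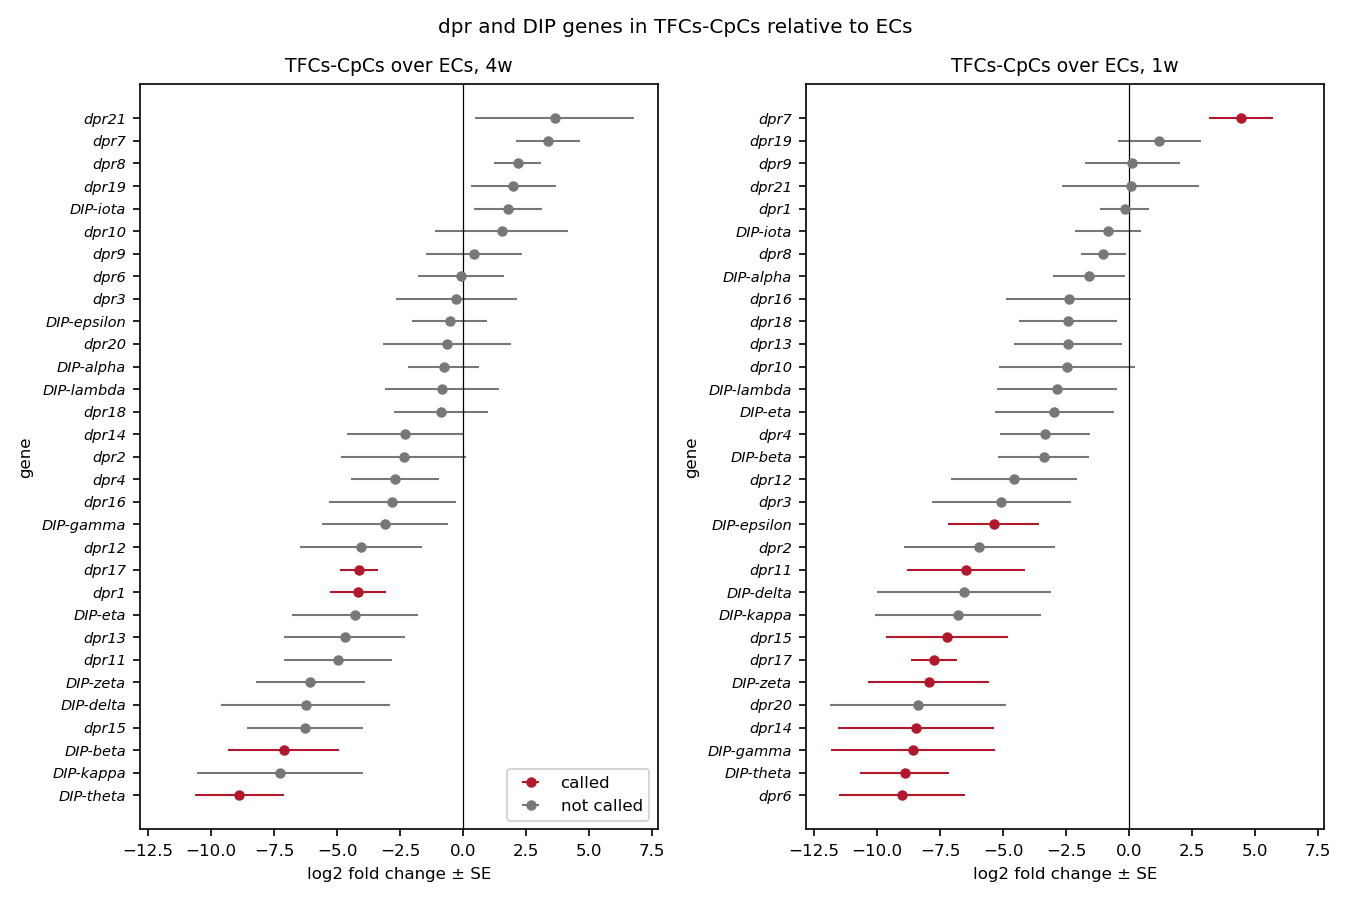
Fitted log2 fold change of TFCs-CpCs over ECs (horizontal axis) with its SE for 31 members at 4w (left) and at 1w (right), from edgeR; red marks a call. Most points lie left of 0 at both ages, dpr17 has the shortest error bar among the lower calls, and dpr7 is the single red point right of 0.

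Set beside their binding partners, the Dprs and DIPs of some groups lay at different levels and those of others close together. In the DIP-gamma group the 4 Dprs summed to 40.3 and 42.3 cRPKM in 4w ECs, nearly all of it dpr17, whereas DIP-gamma was at 1.29 and 0.39 cRPKM there, at 1.21 and 0.11 cRPKM in 1w ECs, at 0.10 and 0.27 cRPKM in Smu1 RNAi ECs and at 0.02 and 0.37 cRPKM in control ECs. In the group of DIP-eta, DIP-theta and DIP-iota the order was the other way in most libraries: the 3 DIPs summed to 8.31 and 5.92 cRPKM in 4w ECs, and their 5 Dprs to 3.29 and 3.45 cRPKM. In Smu1 RNAi ECs those DIPs summed to 11.3 and 15.3 cRPKM and their Dprs to 1.75 and 1.89 cRPKM, and in control ECs to 11.2 and 16.5 cRPKM and 1.89 and 3.55 cRPKM.

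In the DIP-beta group the 3 Dprs summed to 5.67 and 10.3 cRPKM in 4w TFCs-CpCs, against 2.47 and 2.19 cRPKM in 1w TFCs-CpCs, while DIP-beta was at most 0.29 cRPKM at either age. In the DIP-alpha group levels were close in several groups of libraries: DIP-alpha was at 0.81 and 1.26 cRPKM in 4w ECs and its 2 Dprs summed to 0.42 and 2.11 cRPKM. In control ECs these values were 1.01 and 1.88 cRPKM and 0.75 and 1.11 cRPKM. DIP-delta and dpr12 were both low, with DIP-delta at 0 counts in all 4 TFCs-CpCs libraries and at 0.00 to 1.19 cRPKM in ECs, and dpr12 at no more than 0.43 cRPKM in any library. cDIP, a secreted protein that binds many Dprs and DIPs, was at 6.18 and 7.32 cRPKM in 4w and 4.44 and 6.50 cRPKM in 1w TFCs-CpCs, at 5.82 and 4.33 cRPKM in 4w and 14.9 and 4.31 cRPKM in 1w ECs, and at 5.01 and 1.44 cRPKM in Smu1 RNAi and 4.12 and 3.33 cRPKM in control ECs. It was thus present at a few cRPKM in both cell groups.

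The other 17 members, those neither called in any comparison nor averaging 5 cRPKM in a group, stayed low. Their median group mean was 0.09 cRPKM in 4w and 0.08 cRPKM in 1w TFCs-CpCs, 0.29 cRPKM in 4w and 0.72 cRPKM in 1w ECs, and 0.27 cRPKM in Smu1 RNAi and 0.40 cRPKM in control ECs. The highest value among them in any library was 5.68 cRPKM, for dpr13 in replicate 1 of the 1w ECs, against 0.10 cRPKM in replicate 2. Apart from 1w ECs, where 7 of the 17 averaged 1 cRPKM or more, at most 2 did so in a group.

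The members also share features that their names do not give. All 32 are longer than the median of 2184 bases of the 13265 protein-coding genes with values, with a median gene span of 32526 bases (3738 to 379081) that 4.40% of those genes reach. They lie on every large chromosome arm, 9 on 2L, 5 on 2R, 4 on 3L, 8 on 3R and 5 on X, with dpr7 on chromosome 4. Exon bases were shared with another gene for 6 of them, and the largest share was 15.7%, in dpr4, with an antisense RNA; since no source says whether counting used the strand, its reads and those of its partner cannot be told apart.

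Other lists, mostly of immunoglobulin genes of cell recognition, were read beside the family. The beat and Side genes, a receptor and ligand family of motor axon guidance, are 22 genes. With age in TFCs-CpCs 11 were tested and 1 fell (side-VIII, log2 fold change -2.37, SE 0.47, adjusted p = 0.0672 in edgeR), beside 3.92% of all genes. There DESeq2 called 3 of the 11, beside 15.2% of all genes, and limma on log2(cRPKM + 1) called 2 of the 4 it tested, beside 10.2%. edgeR and DESeq2 called 0 of 20 with age in ECs (1 at an unadjusted p under 0.05 in edgeR) and 0 of 17 in the RNAi experiment (2 at an unadjusted p under 0.05). limma called 0 of the 7 and 0 of the 3 that it tested. Between cell groups 20 were tested, and 2 were higher in TFCs-CpCs at both 4w and 1w (beat-IIb and side-V), with 1 lower at 4w and 4 lower at 1w, beside 7.03% higher and 3.86% lower of all genes at 4w and 12.7% and 11.2% at 1w. The list's median log2 fold change in TFCs-CpCs was 0.67 with age, and in ECs -0.70, against 0.04 and -0.03 over all genes tested.

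The list of other immunoglobulin adhesion genes also holds secreted proteins, such as ImpL2 and cDIP. Of its 28 genes, 27 had values and 23 were tested with age in TFCs-CpCs. Of these, 2 rose (ImpL2, log2 fold change 2.15, and Lac, 2.11) and 1 fell (ed, log2 fold change -1.68), beside 1.25% and 3.92% of all genes, with a median of 0.53. There DESeq2 called 5 of the 23, beside 15.2% of all genes, and limma on log2(cRPKM + 1) called 4 of the 18 it tested, beside 10.2%. With age in ECs all 27 were tested, edgeR and DESeq2 called 0, and limma called 0 of the 20 it tested. In edgeR 4 had an unadjusted p under 0.05, against 5.34% of all genes, and the median was -0.15. In Smu1 RNAi ECs 2 of 27 were called higher, beside 0.735% of all genes: Dscam2 (log2 fold change 3.23, SE 0.28, adjusted p = 7.99e-05 in edgeR), a homophilic cell surface receptor, and Dscam4 (log2 fold change 1.05, SE 0.12, adjusted p = 0.000601 in edgeR). The median of that list was -0.06, and -0.00 over all genes tested.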

How the data were processed

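Per the labels and the methods of the study, RNA of sorted ovarian cells was amplified by PCR (Pico Profiling) and sequenced from strand-specific libraries. The authors ran vast-tools on dm6, and their deposited tables give, by gene and library, the raw read count without normalization and cRPKM, an RPKM corrected for mappable length. Strand use in counting is not given in the sources used here. Of 14489 genes listed, 763 had no value; 13506 of 13726 identifiers matched the BDGP6 name table, all 32 members included. Library depth was 12078227 to 52487930 counted reads.

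Members and gene lists were chosen with earlier results of these data known, and the RNAi contrast chose the family. Counts were tested with edgeR 4.0.16 (R 4.3.3; TMM, quasi-likelihood test) over genes that reached 10 counts in 2 or more libraries, with Benjamini-Hochberg adjustment over all genes tested; a gene was called when its log2 fold change was 1 or more in size, with an adjusted p under 0.1. Ages and genotypes were compared on their own 4 libraries; the interaction and the cell groups on the 8 ageing libraries. The SE is the absolute log2 fold change divided by the square root of F. A count of 0 was taken to allow 3 counts per library, and a fold given as at least a value sets the mean of the other group against that limit. Exact 95% intervals cover counting error only, since PCR reads are not independent molecules. Values in every library are given for members called in any comparison or with a group mean of at least 5 cRPKM, the others by ranges. The test was checked on simulated counts.

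Alternatives were DESeq2 1.42.0 (Wald test), its size factors in edgeR, no filter, one fit of all 12 libraries, a threshold of 0.05, a replicate block, and limma 3.58.1 on log2(cRPKM + 1) and log2(cRPKM + 0.1) for genes that averaged 1 cRPKM or more, which tested fewer members, and leaving out each library. Per the study's methods, females of both ages in a replicate came from one batch, and in ECs the numbers match in the labels and the supplement, so that they pair those samples; in TFCs-CpCs the 2 sources number libraries differently, and in the RNAi experiment no source ties numbers to vials. Deviations of same-numbered libraries from their group means correlated across genes at -0.033 in ECs, -0.040 in TFCs-CpCs and 0.219 in the RNAi experiment. Summaries and figures came from matplotlib 3.10.9, scipy 1.17.1, numpy 2.4.6 and pandas 2.3.3 in Python 3.11.15.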

Additional observations from a re-analysis of the deposited data

How the results depend on the processing

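All calls on members rest on 2 libraries per group and on the depth of each library. With age in TFCs-CpCs, the 3 members called became 5 with DESeq2 (15.2% of all genes), 6 with all 12 libraries in one fit (14.0%), 1 of the 7 that either limma fit tested (10.2% and 8.99%) and 0 at an adjusted p under 0.05, and 0 to 6 when single libraries were left out. In ECs the count of 0 became 1 with DESeq2 and stayed 0 to 0 without single libraries. With Smu1 RNAi, where the family was chosen for dpr17 so that these counts describe and do not test it, 1 member was past the call rule, 0 with all 12 libraries in one fit (0.00843% of genes), 2 (dpr12 and dpr17) with the replicate block (2.61%), and 1 to 1 without single libraries. For the interaction the count of 0 became 3 with DESeq2 (7.45% of genes), 1 with no filter (4.18%) and 3 with all 12 libraries (7.85%). Leaving out single libraries moved the interaction of dpr17 between 2.34 and 5.02 log2 units. At 1w the 10 members called between cell groups became 15 with DESeq2 (32.7% of genes), 18 with all 12 libraries (40.1%) and 5 with the replicate block (19.2%). Either limma fit called 4 of the 11 it tested, beside 31.8% of genes with log2(cRPKM + 1) and 30.6% with log2(cRPKM + 0.1). At an adjusted p under 0.05 there were 5 (15.4%). Without a 1w library or a 4w EC library fewer members, and fewer genes as a whole, were called. Without a 4w TFCs-CpCs library more of both were. At 4w the 4 called became 9 with DESeq2 (18.6%), 9 with all 12 libraries (22.0%) and 2 of the 11 tested with limma on log2(cRPKM + 1) (19.1%). The calls of dpr1 and DIP-beta were lost without some single libraries. Leaving out single libraries, the log2 fold change of dpr17 lay between -5.51 and -3.44 and that of DIP-theta between -11.4 and -8.12. The cause of these shifts was not tested. The block gave 2 calls with age in TFCs-CpCs (dpr7 and dpr8, beside 7.03% of genes) and 4 between cell groups at 4w (9.43%). It changed no call of a member in ECs with age. The replicate numbers are known to pair samples in ECs alone. Where a library was left out of a group of 2, the lone library was assumed to vary like the others.

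Of 490 recomputed values of 37 member log2 fold changes named in the report, 0 changed sign, 75 lost and 19 gained a call. These 37 were picked for the report, and some come from the contrast that chose the family. Several passed the filter through a single group, which fixed their sign, so that nothing is read from the 0. Others of named members did change sign without single libraries: with Smu1 RNAi DIP-theta ranged from -0.51 to 0.09 and DIP-iota from -0.09 to 0.40. Over all genes, the numbers called ranged over the alternative fits from 287 to 1665 with age in TFCs-CpCs (479 in the fit used), from 8 to 105 in ECs (11), from 1 to 259 with Smu1 RNAi (110), from 130 to 931 for the interaction (283), from 1760 to 4761 between cell groups at 1w (2737) and from 783 to 2608 at 4w (1247). The share of calls that were higher was 53.3% at 1w and 64.6% at 4w between cell groups with edgeR, and 36.8% and 47.7% with limma on log2(cRPKM + 1); with age in TFCs-CpCs it was 24.2% with edgeR and 43.4% with limma.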

Other observations

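ECs of the ageing experiment and control ECs of the RNAi experiment differ in genotype and in the age of the females, the temperature of the ageing females is not given by group in the sources used here, and the 2 experiments are set side by side without a comparison. dpr17 was at 39.1 and 39.9 cRPKM in 4w ECs and at 21.1 and 14.9 cRPKM in 1w ECs, and at 16.3 and 17.8 cRPKM in the control ECs kept at 29 °C. dpr19 was at 0.03 and 0.99 cRPKM in 4w ECs, at 4.24 and 1.14 cRPKM in 1w ECs, and at 5.16 and 4.75 cRPKM in control ECs. DIP-theta lay between 3.67 and 6.40 cRPKM in all 8 EC libraries of both experiments.

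Replicates of the RNAi experiment were closer than those of the ageing experiments. Of the 21 members with at least 10 counts in a Smu1 RNAi library, 0 differed by 5-fold or more between replicates, and of 29 in control ECs, 2 did, against 6 of 28 in 4w ECs and 16 of 32 in 1w ECs. Genes as a whole had the same order, with 2.44% in Smu1 RNAi, 2.94% in control, 18.1% in 4w and 22.1% in 1w ECs, and 45.0% and 50.6% of other genes under 5 cRPKM in 4w and 1w ECs. All 16 of these 1w EC members were higher in replicate 1.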
